A study of Bos taurus with 10 samples.

Results

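A set of 8 genes that mark simple epithelia, or their counterpart in connective tissue, was followed across 5 tissues of lactating cattle: the keratins KRT8, KRT18, KRT19 and KRT15, the transcription factors EHF and ELF3, the splicing regulator ESRP1, and vimentin (VIM). They were chosen by name from 4366 named genes, and all 8 were measured, by 11 of 5472 named array elements, with no filter on low values. KRT18 had 3 cDNA clones on the array, VIM 2 and each of the other genes 1. The tissues were liver, mammary gland and 3 adipose depots (mesenteric, omental and subcutaneous) at peak lactation, and each was hybridised beside a reference RNA mixed from tissues. The labels speak of a cow for each tissue without saying whether it was the same animal, give no breed or age, and name no treatment or genotype. Each tissue was 1 RNA sample on 2 arrays, once with the tissue in the dye Cy3 and once in Cy5. The 2 arrays are a technical dye swap, so the spread between animals was not measured and no p-value is given.

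Keratins are the intermediate filaments of epithelial cells, and each filament pairs an acidic (type I) with a basic (type II) keratin. KRT8 (type II) and KRT18 (type I) are the first pair made by simple epithelia and the pair of hepatocytes, whereas KRT19 marks ducts, bile ducts, luminal mammary cells and the mesothelium that covers visceral fat. EHF and ELF3 belong to the epithelium-restricted branch of the ETS transcription factors, ESRP1 directs the epithelial pattern of alternative splicing, and vimentin forms the intermediate filaments of fibroblasts, endothelium and leukocytes. In the RefSeq gene table for assembly ARS-UCD2.0, KRT8 and KRT18 lie next to each other on chromosome 5, with 0 protein-coding genes between them, as do KRT15 and KRT19 on chromosome 19.

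A level is the log2 ratio of tissue over reference after each array was centred on its median, so a value of 0 means the ratio of the median spot on that array and not equality with the reference. Levels compare tissues for the same gene and not genes with each other. The error after ± is the distance of each dye orientation from the mean of both. A difference between tissues was called when its mean reached 1 log2 unit (2-fold) and both dye orientations had the same sign. The sign of the ratio is likely rather than stated, and the names depend on a print layout that had to be reconstructed. In whole tissue, fewer cells of a type and less RNA per cell cannot be told apart. Arrays held 15970 to 16245 spots with a value, duplicate spots correlated at 0.832 to 0.915 within an array, and over the members' 110 spot pairs the median gap between duplicates was 0.10 log2 units. The hepatocyte genes SLC10A1 (5.85 ± 0.14) and TF (5.12 ± 0.63) were higher in liver than in adipose tissue, while APOA1 (0.08 ± 0.25) was not called. All 6 measured genes of milk secretion were higher in mammary gland than in adipose tissue. These genes helped to set the sign, so they are a description only. Subcutaneous adipose tissue stood apart from the visceral depots: of 15 myeloid markers 11 were higher and 1 lower in it, and of 7 adipocyte markers 5 were lower and 0 higher.

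The members fell into separate patterns. KRT19, KRT15, EHF and ESRP1 were highest in mammary gland, KRT18 was highest in liver, and KRT8 was highest in liver and mammary gland. ELF3 varied least of the members, though more than the median gene, and VIM was highest in subcutaneous adipose tissue and lowest in liver. The range of a gene over the 5 tissues had a median of 0.73 log2 units among the 4307 named genes with a value on every array. It was 4.63 for KRT19, 4.39 for EHF, 4.24 for VIM, 2.85 for ESRP1, 2.02 for KRT8, 1.95 for KRT18, 1.56 for KRT15 and 0.96 for ELF3.

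**Figure D1:**
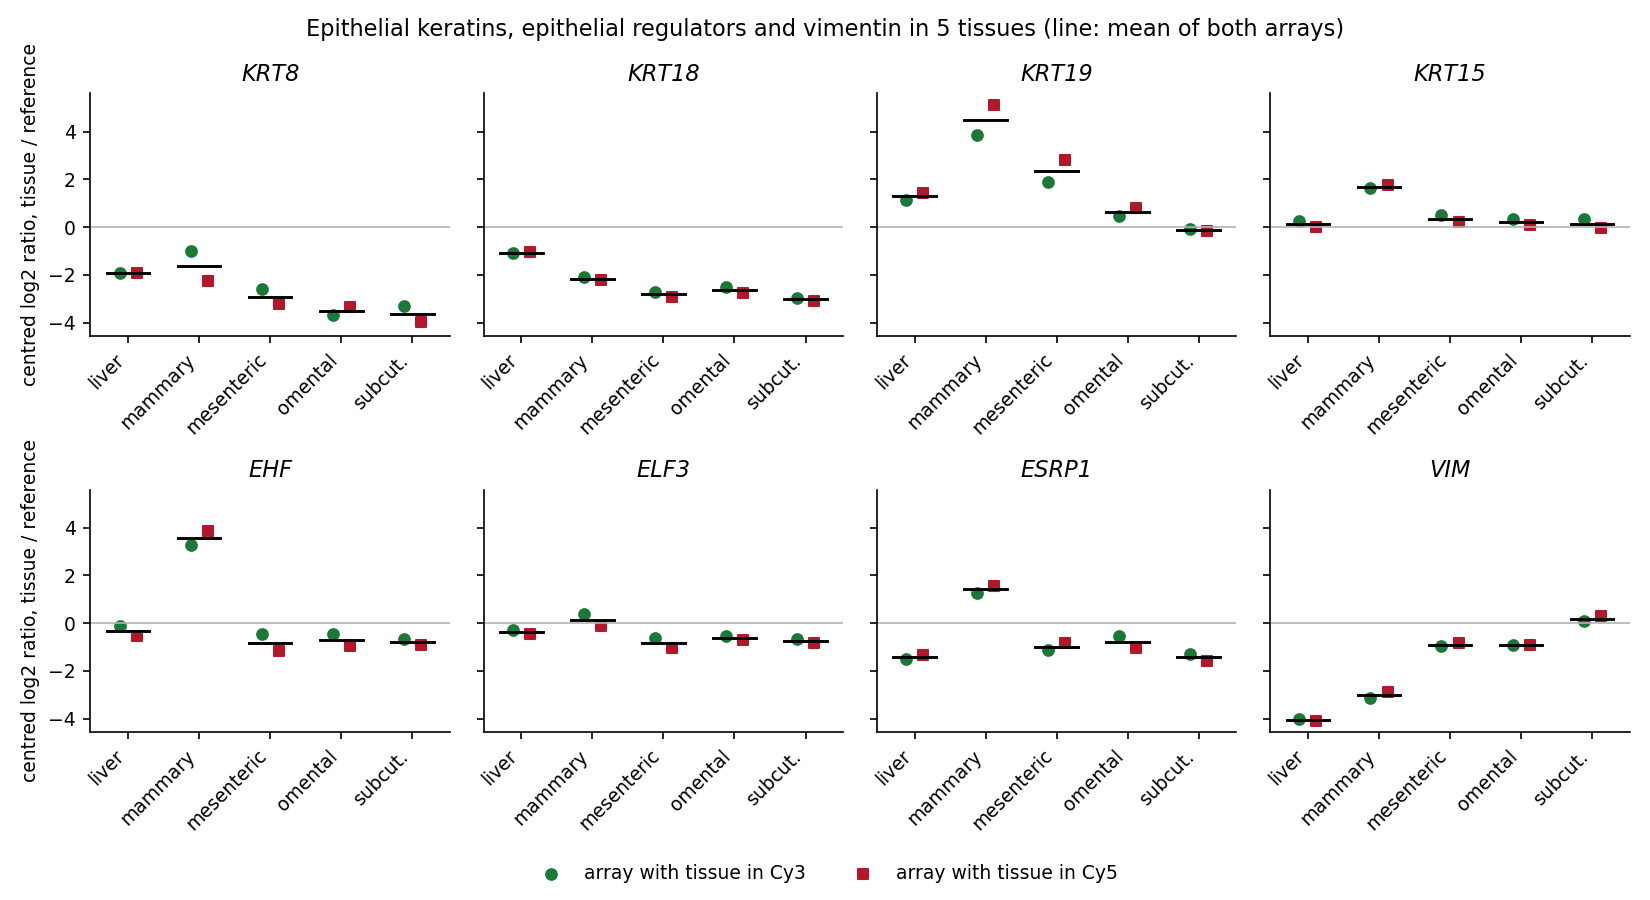
Level of each of the 8 genes in 5 tissues (horizontal axis), as the centred log2 ratio of tissue over reference (vertical axis), for the array with the tissue in Cy3 (circle), the array with the tissue in Cy5 (square) and their mean (line). EHF stands at 3.56 in mammary gland and between -0.83 and -0.32 elsewhere, while VIM runs from -4.05 in liver to 0.19 in subcutaneous adipose tissue.

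KRT8 lay below the array median in all 5 tissues. On the arrays with the tissue in Cy3 and Cy5 its level was -1.91 and -1.90 in liver, -1.01 and -2.27 in mammary gland, -2.60 and -3.24 in mesenteric, -3.69 and -3.37 in omental, and -3.32 and -4.00 in subcutaneous adipose tissue. Every liver and mammary array stood above every adipose array, but liver fell between the widely spaced mammary arrays. KRT8 was higher in mammary gland than in adipose tissue by 1.73 ± 0.47 log2 units (3.32-fold) and higher in liver than in adipose tissue by 1.46 ± 0.17 (2.76-fold). Mammary gland and liver differed by 0.27 ± 0.64, with opposite signs in the 2 dye orientations, and were not separated. Among the depots, both mesenteric arrays exceeded both omental arrays (0.61 ± 0.48, not called), and the omental and subcutaneous values overlapped.

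KRT18, the filament partner of KRT8, was highest in liver. The mean over its 3 clones was -1.09 and -1.04 in liver, -2.10 and -2.22 in mammary gland, -2.72 and -2.92 in mesenteric, -2.51 and -2.74 in omental, and -2.95 and -3.09 in subcutaneous adipose tissue. The liver arrays stood above the mammary arrays, and these above all adipose arrays. The gene was higher in liver than in mammary gland by 1.09 ± 0.09 (mammary gland minus liver -1.09) and higher in liver than in adipose tissue by 1.76 ± 0.12 (3.38-fold). Mammary gland exceeded adipose tissue by 0.66 ± 0.03, which was not called. The difference between mammary gland and liver lay close to the threshold, and was not called without centring (-0.88) or after quantile normalisation (-0.89).

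The clones of KRT18 did not share a pattern. Clones 1 and 2 lay at -1.69 ± 0.05 and -1.86 ± 0.40 in liver, at -3.22 ± 0.11 and -3.60 ± 0.01 in mammary gland and between -4.84 and -3.73 in the depots. The means of clone 3 stayed between 0.05 and 0.35 in the 5 tissues, with single arrays from -0.14 to 0.72, and none of its differences in the 5 comparisons reached the threshold. Liver exceeded mammary gland by 1.53 ± 0.16 for clone 1 (mammary gland minus liver -1.53) and by 1.74 ± 0.39 for clone 2 (-1.74), and clone 3 gave -0.00 ± 0.29. Liver exceeded adipose tissue by 2.42 ± 0.17 for clone 1 and by 2.62 ± 0.47 for clone 2, against 0.23 ± 0.27 for clone 3. Whether clone 3 carries KRT18 was not tested. Without it, a choice made after seeing the data, the differences were -1.64 ± 0.28 (mammary gland minus liver), 2.52 ± 0.32 (liver minus adipose tissue) and 0.88 ± 0.04 (mammary gland minus adipose tissue), and the calls did not change. The 2 clones of VIM stayed close to each other, and were farthest apart in subcutaneous adipose tissue, at 0.07 ± 0.09 and 0.31 ± 0.12.

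**Figure D2:**
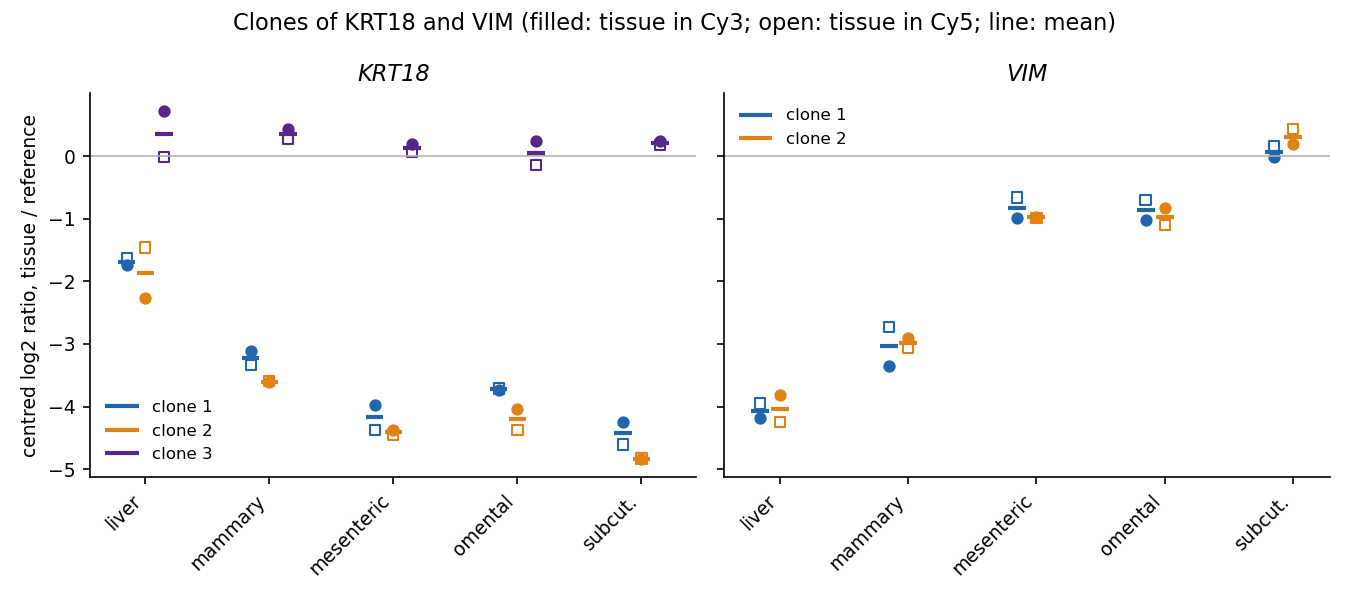
Level of each cDNA clone of KRT18 (left) and VIM (right) in 5 tissues, as the centred log2 ratio of tissue over reference, with filled circles for the tissue in Cy3, open squares for Cy5 and a line for the mean. KRT18 clones 1 and 2 fall from liver to the adipose depots, the means of clone 3 stay between 0.05 and 0.35, and the VIM clones run side by side.

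KRT19 had the widest range of the members. Its level was 3.86 and 5.14 in mammary gland, 1.88 and 2.82 in mesenteric adipose tissue, 1.15 and 1.44 in liver, 0.48 and 0.79 in omental adipose tissue, and -0.08 and -0.17 in subcutaneous adipose tissue. All 5 tissues were separated, since no array of 1 tissue overlapped the arrays of the next. KRT19 was higher in mammary gland than in liver by 3.20 ± 0.50 log2 units (9.22-fold), which ranked 6 of 4325 genes, and higher than in adipose tissue by 3.55 ± 0.45 (11.7-fold), rank 6 of 4313. Liver and the mean of the depots differed by 0.34 ± 0.05, which was not called. That average joins unlike depots: liver was lower than mesenteric (-1.06 ± 0.33), and higher than subcutaneous adipose tissue by 1.42 ± 0.19. Without the mesenteric depot in the adipose mean the liver difference was called, at 1.04 ± 0.09, and without the subcutaneous depot it was -0.20 ± 0.17. Of the other bile duct markers measured in liver against adipose tissue, ANXA4 was higher (1.56 ± 0.07), SPP1 (-2.86 ± 0.33) and AQP1 (-1.08 ± 0.25) were lower, and EPCAM (-0.71 ± 0.37) and CLDN4 (0.21 ± 0.12) were not called.

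KRT15, a type I keratin best known from the basal layer of stratified epithelia, stood highest in mammary gland. Its level was 1.64 and 1.75 there, 0.27 and -0.01 in liver, 0.51 and 0.20 in mesenteric, 0.33 and 0.10 in omental, and 0.33 and -0.03 in subcutaneous adipose tissue. The 4 other tissues overlapped each other throughout, and the mammary arrays lay clear of all of them. Mammary gland exceeded liver by 1.56 ± 0.19 (2.95-fold) and adipose tissue by 1.45 ± 0.20 (2.74-fold). Of 5 myoepithelial markers, 0 were called between mammary gland and adipose tissue, while 2 were higher and 0 lower in mammary gland than in liver. These 5 were all contractile genes (ACTG2, MYH11, MYLK, TAGLN and TPM2). Other markers of the list, such as TP63 and OXTR, were not analysed here. The part of myoepithelial cells in the KRT15 differences was not tested. Mesenteric and omental adipose tissue differed by 0.14 ± 0.04 for KRT15 (not called) and by 1.72 ± 0.32 for its chromosomal neighbour KRT19. The 34 other keratins looked for, such as KRT5, KRT7 and KRT14, were not analysed here because none matched a named element.

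EHF, an ETS factor of glandular epithelium, separated mammary gland most sharply. Its level was 3.28 and 3.84 in mammary gland, -0.11 and -0.53 in liver, -0.48 and -1.19 in mesenteric, -0.46 and -0.96 in omental, and -0.65 and -0.91 in subcutaneous adipose tissue. The 4 other tissues overlapped in order, and all lay below the array median on both arrays. EHF was higher in mammary gland than in liver by 3.88 ± 0.49 (14.7-fold), rank 5 of 4325 genes. It was higher than in adipose tissue by 4.33 ± 0.53 (20.2-fold), rank 2 of 4313.

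ELF3, the other epithelial ETS factor, moved far less. Its level was 0.36 and -0.12 in mammary gland, -0.29 and -0.46 in liver, -0.63 and -1.06 in mesenteric, -0.56 and -0.72 in omental, and -0.65 and -0.85 in subcutaneous adipose tissue. Mammary gland lay above liver and liver above the depots with no overlap of arrays, but no step was called: mammary gland exceeded adipose tissue by 0.86 ± 0.11 and liver by 0.49 ± 0.16. The difference from adipose tissue ranked 155 of 4313 genes. The difference between EHF and ELF3 was not tested.

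ESRP1, whose protein keeps epithelial exons in transcripts such as that of FGFR2, was also highest in mammary gland. Its level was 1.25 and 1.57 there, -1.50 and -1.32 in liver, -1.14 and -0.83 in mesenteric, -0.53 and -1.04 in omental, and -1.29 and -1.58 in subcutaneous adipose tissue. Mammary gland lay above the array median on both arrays and the other tissues below it. Mammary gland exceeded liver by 2.82 ± 0.07 (7.08-fold), rank 11 of 4325 genes, and adipose tissue by 2.48 ± 0.24 (5.58-fold), rank 14 of 4313. Liver, an epithelial organ, did not exceed adipose tissue for ESRP1 (-0.34 ± 0.17, not called). Its paralogue ESRP2, which serves hepatocytes, was higher in liver than in adipose tissue by 1.09 ± 0.14.

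VIM was highest in the adipose depots. Its level was -4.00 and -4.10 in liver, -3.13 and -2.89 in mammary gland, -0.98 and -0.82 in mesenteric, -0.93 and -0.91 in omental, and 0.09 and 0.30 in subcutaneous adipose tissue. The visceral depots overlapped, and all other steps were separated. VIM was lower than in adipose tissue by 3.51 ± 0.11 log2 units in liver (difference -3.51, 11.4-fold) and by 2.47 ± 0.05 in mammary gland (-2.47, 5.53-fold), ranks 6 of 4326 and 20 of 4313 from the lowest. Mammary gland exceeded liver by 1.04 ± 0.17, close to the threshold: the difference was 0.87 from the Cy3 arrays alone and 0.997 from the odd spots alone, neither of which reached it. Myeloid cells also make vimentin. Of 15 of their markers measured, 13 were lower and 0 higher in mammary gland than in adipose tissue (median -1.93), and 7 were lower and 3 higher in liver (median -0.96). Their part in the VIM differences was not tested.

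**Figure D3:**
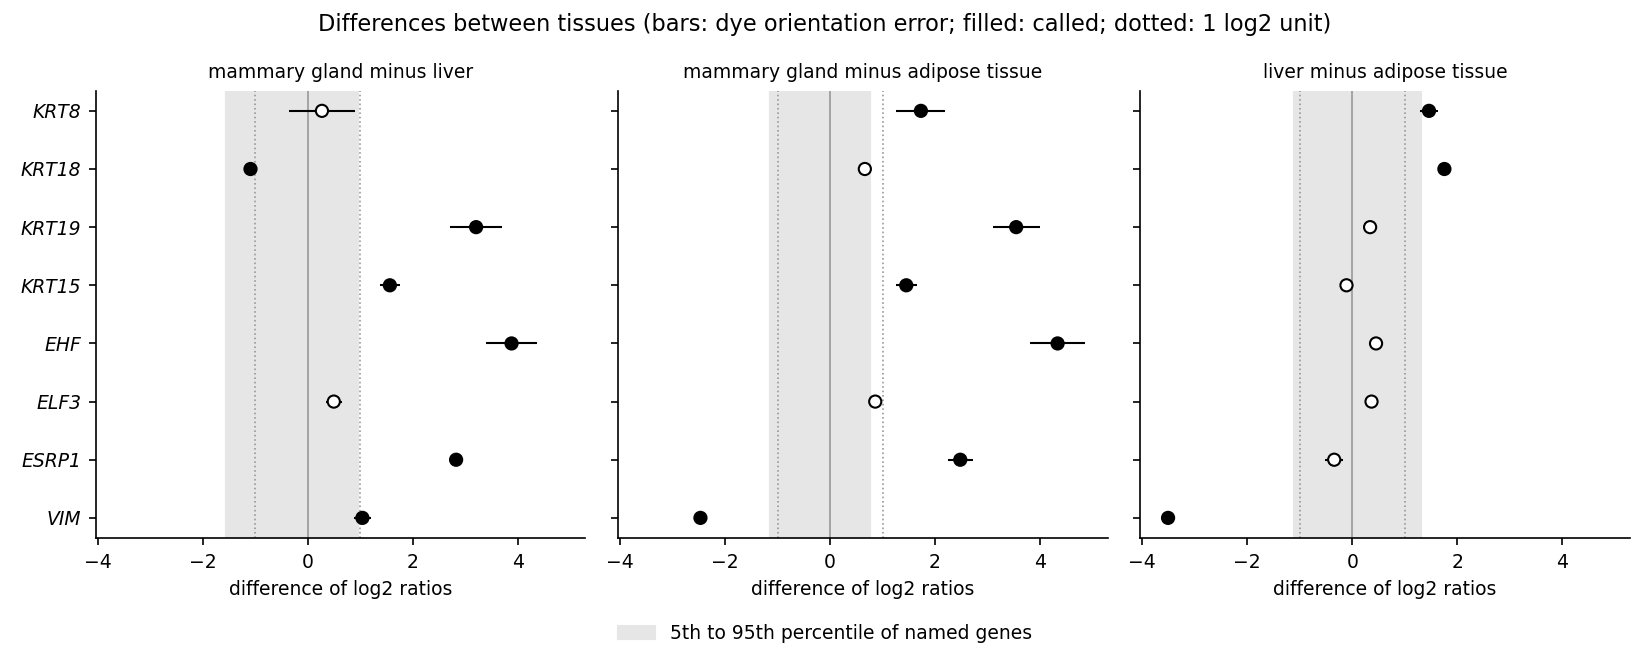
Difference of log2 ratios (horizontal axis) for the 8 genes in 3 comparisons, with bars for the dye orientation error, filled points for called differences, dotted lines at 1 log2 unit and a grey band from the 5th to the 95th percentile of all named genes. KRT19, EHF and ESRP1 lie far to the right in both mammary comparisons, and VIM lies far to the left in both adipose comparisons.

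Mammary gland against liver sets a secretory gland beside an organ whose epithelium is mostly hepatocytes. Of the 8 members 5 were called higher in mammary gland (KRT19, KRT15, EHF, ESRP1 and VIM), KRT18 was called lower, and KRT8 and ELF3 were not called. Among all named genes, 13.8% of 4325 were called, 4.44% higher and 9.39% lower in mammary gland, and 1.06% had a dye orientation error of 1 log2 unit or more. Without centring, 49.6% of the calls were higher in mammary gland, against 32.1%. The median difference was 1.30 over the members and 0.01 over all genes. Of the other epithelial transcription factors 3 of 8 measured were higher in mammary gland: TFAP2A at 2.90 ± 0.77, GATA3, a factor of luminal mammary cells, at 2.57 ± 0.60, and TFAP2C at 1.29 ± 0.01 (list median 0.79). The TFAP2A values come from 1 of its 2 clones. The other had a value on 8 arrays and could not be used for the difference, and its dye orientations disagreed in mammary gland, at -1.85 with the tissue in Cy3 and 1.16 in Cy5. Epithelial adhesion and surface genes were split, with 7 of 25 higher in mammary gland and 3 lower (median 0.49). MUC1, a surface mucin, stood at 3.08 ± 0.90 and CDH1 (E-cadherin) at 1.23 ± 0.24. The genes higher in liver were SPINT1 (-4.38 ± 0.12), the tight junction gene CLDN1 (-2.39 ± 0.29) and LLGL2 (-1.43 ± 0.31).

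Against adipose tissue, mammary gland again had 5 of 8 members higher (KRT8, KRT19, KRT15, EHF and ESRP1), with VIM lower and KRT18 and ELF3 not called. The shares among all 4313 named genes were 2.85% higher and 6.72% lower, 9.58% in all, and 0.696% had a dye orientation error of 1 or more. After quantile normalisation 40.9% of the calls were higher in mammary gland, against 29.8%. KRT18 was then called too, at 1.04 ± 0.17. The member median was 1.59 against -0.06 for all genes. Adhesion and surface genes had 10 of 25 higher and 1 lower (median 0.62), with MUC1 at 3.41 ± 0.87, BSPRY at 2.21 ± 0.71, CDH1 at 1.85 ± 0.34 and OCLN (occludin) at 1.82 ± 0.12, and SPINT1 on the other side at -1.18 ± 0.35. Other epithelial transcription factors had 4 of 8 higher: TFAP2A at 2.83 ± 0.40 (the same single clone), GATA3 at 1.38 ± 0.52, GRHL1 at 1.26 ± 0.36 and TFAP2C at 1.22 ± 0.13 (median 1.10). Mesenchymal genes lay on the side of VIM in this comparison, with 8 of 12 lower in mammary gland and 0 higher (median -1.50). They were led by FN1 at -3.79 ± 0.06, COL1A2 at -3.61 ± 0.12, COL3A1 at -3.54 ± 0.12 and SPARC at -2.91 ± 0.12. Between mammary gland and liver, 3 of the 12 were higher in mammary gland and 1 lower (median 0.52). FN1 did not follow VIM there, with a level of -4.02 in mammary gland and 0.58 in liver. This list and the others were chosen with earlier results of these data known.

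In liver against the mean of the depots, the 2 keratins of hepatocytes were called and the other epithelial members were not. For KRT8 this was not particular to liver, since mammary gland exceeded adipose tissue by 1.73 ± 0.47. For KRT19 the mean joins depots on either side of liver. KRT8 and KRT18 were called higher in liver and VIM lower, while KRT19, KRT15, EHF, ELF3 and ESRP1, between -0.34 and 0.45, were not called. Of 4326 named genes 7.33% were higher and 6.06% lower, 13.4% in all, and 0.555% had a dye orientation error of 1 or more. Without centring, 34.6% of the calls were higher in liver, against 54.8%. The member median was 0.35 against -0.06 for all genes. Adhesion and surface genes had 6 of 25 higher and 0 lower (median 0.34), with SPINT1 at 3.19 ± 0.23, CGN (cingulin) at 2.06 ± 0.17, CLDN1 at 1.78 ± 0.05 and OCLN at 1.63 ± 0.32. Other epithelial transcription factors had 0 of 8 higher and 2 lower, KLF4 at -1.39 ± 0.01 and GATA3 at -1.19 ± 0.09. Mesenchymal genes had 9 of 12 lower and 0 higher (median -1.84), with COL1A2 at -4.36 ± 0.17 and MMP2 at -3.73 ± 0.14. Among the other filament genes and filament linkers, 1 of 5 was higher, the cornified envelope gene PPL (periplakin) at 1.34 ± 0.14, and 1 was lower, the lamin gene LMNA at -1.55 ± 0.02.

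The comparisons with liver or adipose tissue share samples, so their member values are not independent of each other. Of 6 other ETS factors measured, 0 were called between mammary gland and liver, where 13.8% of all named genes were called. Against adipose tissue 2 were lower in mammary gland, SPIC at -1.43 ± 0.11 and ETS1 at -1.002 ± 0.18, and 0 were higher. Of 11 splicing partners and ESRP targets, CD44 was the 1 called between mammary gland and liver (1.27 ± 0.03). In lists this short, neither count for mammary gland against liver stands apart from the share of all named genes. In mammary gland CD44 (-1.38 ± 0.08) and the splicing regulator MBNL1 (-1.35 ± 0.05) were lower than in adipose tissue, and in liver they were lower too, at -2.65 ± 0.05 and -1.15 ± 0.17. FGFR2, whose exon choice ESRP proteins set, was higher in liver than in adipose tissue by 1.29 ± 0.20, and at 0.41 ± 0.23 was not called between mammary gland and adipose tissue. The arrays report totals per gene and not exon use.

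Within fat, KRT19 and VIM were called between subcutaneous and visceral depots, in opposite directions. KRT19 was lower in subcutaneous than in the mean of mesenteric and omental adipose tissue by 1.62 ± 0.36 log2 units (difference -1.62, 3.07-fold), and VIM was higher by 1.10 ± 0.06 (2.14-fold). For KRT19 that mean joins unlike depots. Mesenteric exceeded subcutaneous adipose tissue by 2.48 ± 0.51, while omental exceeded it by 0.76 ± 0.20, which was not called. For VIM both visceral depots were called lower than subcutaneous adipose tissue, mesenteric at -1.09 ± 0.03 and omental at -1.11 ± 0.09. The other 6 members, between -0.55 and -0.01, were not called. Of 4332 named genes 6.23% were higher and 3.69% lower in subcutaneous adipose tissue, 9.93% in all, and 0.485% had a dye orientation error of 1 or more. The member median was -0.22 against 0.01 for all genes. Without centring, the median of all genes moved to 0.64, 95.6% of the calls were higher in subcutaneous adipose tissue, against 62.8%, and KRT19 stood at -0.99 and was no longer called. The clones of VIM gave 0.91 ± 0.06 and 1.29 ± 0.19, so clone 1 alone fell short of 1 log2 unit.

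Myeloid genes differed between the depots beside VIM, not all in the same direction. Of 15 measured, 11 were higher in subcutaneous adipose tissue, while the complement gene C1QC was lower (-1.38 ± 0.34), and C1QB (-0.85 ± 0.15), C1QA (-0.68 ± 0.11) and CD163 (0.45 ± 0.18) were not called. The level of the 15 measured myeloid markers had a median of 2.72 in subcutaneous (0.71 to 6.63), 1.23 in mesenteric (-2.30 to 2.61) and 1.58 in omental adipose tissue (-1.34 to 3.01). CD44, a surface receptor abundant on leukocytes, rose by 2.52 ± 0.03 in the subcutaneous sample. The epithelial gene CDH1 was also higher there, by 2.01 ± 0.02, on the opposite side from KRT19. Of the 25 epithelial adhesion and surface genes, 1 was higher and 1 lower (median -0.02). Of 12 mesenchymal genes, 3 were lower in the subcutaneous sample and 1 higher (median -0.68): TAGLN stood at -1.77 ± 0.04, COL3A1 at -1.16 ± 0.35, SPARC at -1.06 ± 0.12 and ANXA1 at 1.03 ± 0.15. Endothelial markers, another source of vimentin, were lower for 6 of 10 and higher for 0 (median -1.10). The part of leukocytes in the VIM difference was not tested.

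Between the visceral depots, KRT19 was the 1 member called, higher in mesenteric than in omental adipose tissue by 1.72 ± 0.32 (3.29-fold), rank 10 of 4340 genes. The share of named genes called was 1.36% in all, with 0.783% higher in mesenteric and 0.576% lower. A dye orientation error of 1 log2 unit or more was found for 0.829%. Without centring 19.8% of the calls were higher in mesenteric adipose tissue, against 57.6%. The 2 epithelial adhesion genes called out of 25 were tight junction genes and lay on the same side, CLDN1 at 1.76 ± 0.16 and CGN at 1.21 ± 0.10. The median of that list was -0.04, against -0.01 for all genes. LAD1, of the same list, lay the other way without being called, at -1.33 in mesenteric and -0.52 in omental adipose tissue. OCLN (0.71 ± 0.07) and KRT8 (0.61 ± 0.48) were not called, although KRT8 reached 1.09 on the Cy3 arrays alone. KRT18 (-0.19 ± 0.01), EHF (-0.12 ± 0.10), ESRP1 (-0.20 ± 0.41) and KRT15 (0.14 ± 0.04) were not called either, and MUC1 stood at 0.28 ± 0.00. PDPN, the 1 measured mesothelial marker other than keratins, differed by 0.39 ± 0.08 and was not called. FN1 was higher in mesenteric adipose tissue by 1.18 ± 0.02. Other mesothelial markers such as MSLN were not analysed here, and the part of mesothelial or other epithelial cells in the KRT19 difference was not tested.

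**Figure D4:**
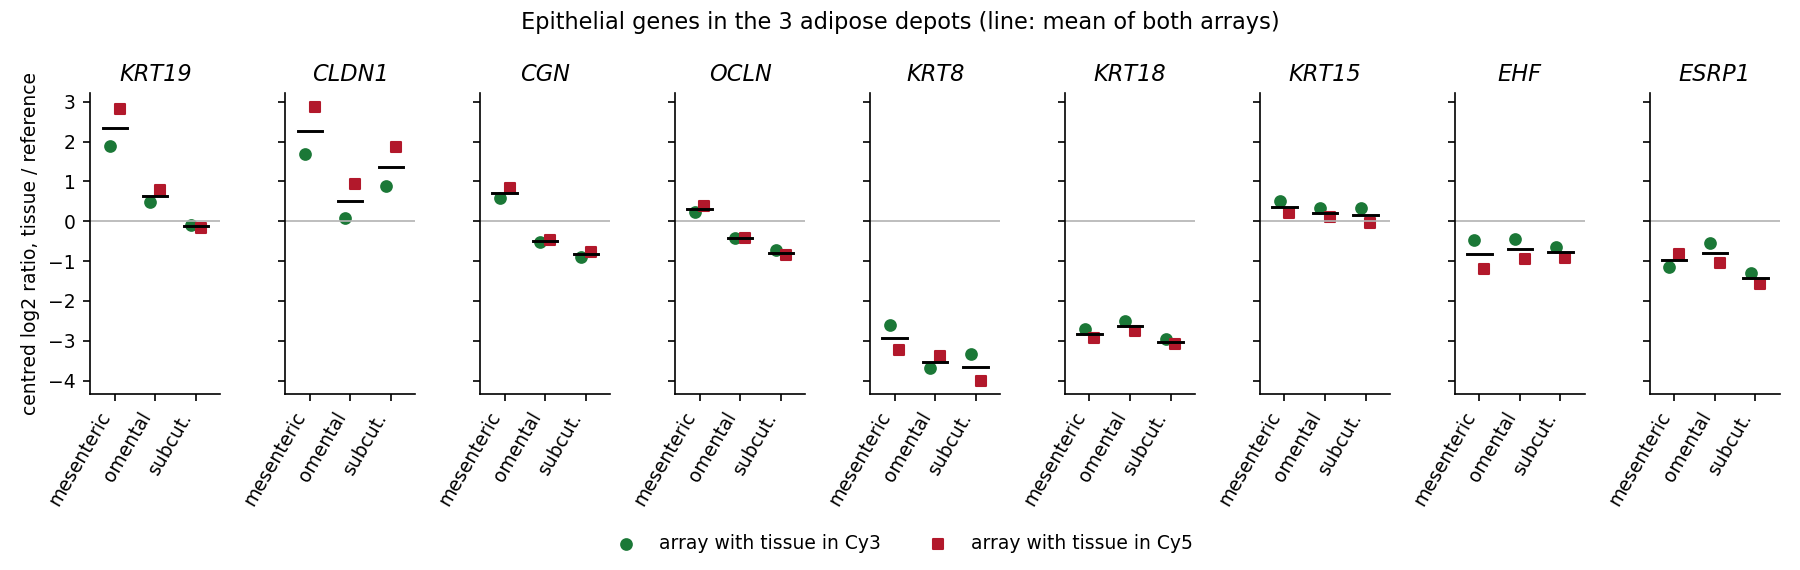
Level of 9 epithelial genes in mesenteric, omental and subcutaneous adipose tissue, as the centred log2 ratio of tissue over reference, for each array (circle, tissue in Cy3; square, tissue in Cy5) and their mean (line). KRT19, CLDN1, CGN and OCLN are highest in mesenteric adipose tissue, at means of 2.35, 2.28, 0.70 and 0.30, while KRT15 and EHF keep nearly the same level in the 3 depots. The 9 genes are a selection. Of the epithelial genes not drawn, CDH1 was highest in subcutaneous adipose tissue (2.27) and LAD1 in omental adipose tissue (-0.52).

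For each member, the genes with the most similar profile over the 5 tissues were found by the root mean square distance of the profiles, each centred on its own mean, among 4307 genes. The nearest to KRT8 were the tight junction genes OCLN (distance 0.13 log2 units) and PATJ (0.17), followed by RHPN2 (0.19). The nearest to KRT18 were ZKSCAN5 (0.09), MIA2 (0.14) and ANK3 (0.14), with KRT8 at rank 493 for KRT18 and KRT18 at rank 97 for KRT8. The 2 partners of 1 filament thus did not have the closest profiles, with KRT18 taken as the mean of its discordant clones.

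EHF lay nearest to MUC1 (0.38), RETREG1 (0.47) and PLIN2, a lipid droplet coat gene (0.65), with ESRP1 at rank 5 and KRT19 at rank 12. KRT19 lay nearest to GIPC2 (0.59), RETREG1 (0.73) and MUC1 (0.77), with ESRP1 at rank 6 and EHF at rank 9. For ESRP1 the nearest were ATP2C2, a calcium pump of the secretory pathway (0.25), GIPC2 (0.28) and B4GALT1 (0.31), a subunit of lactose synthase. ELF3 lay nearest to KAT14 (0.06), CYB5B (0.07) and the tight junction gene CLDN4 (0.09), and KRT15 to DAPK3 (0.09), TMEM43 (0.13) and RAB18 (0.14). VIM lay nearest to CST3 (0.40), FABP5 (0.52) and S100A11 (0.53). With 5 tissues a small distance is easily reached by a gene of narrow range, so these names are a description.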

How the data were processed

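The deposited values are log2 ratios of the 2 dyes of an array, with the base inferred from a ceiling in the values. The submitters state that slides were read with a ScanArray 4000 and GenePix 4.0, per the labels' protocols. Background correction and normalisation: not given in the sources used here. Without channel intensities dim spots were not filtered. Precision is limited by the small number of arrays. Values above 16.6 (the ceiling) were taken as missing, the sign was turned on arrays that carried the tissue in Cy3, and each array was centred on its median. As deposited, the array medians ran from -1.32 to 0.71. The 2 arrays of a tissue correlated at -0.78 to -0.67 before the sign was turned. The sign was inferred from the design text, which treats ratios as relative expression, and from liver and milk genes, so it is likely and not certain. For 1 omental array the labels disagree on the dye of the reference, and its dye label was used.

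Identifiers do not match table positions. The table (48 blocks of 171 elements of duplicate spots) was joined to the annotation (16 blocks of 528 identifiers) through 384-well plates, by the layout with the highest cosine between tissue profiles of different clones of a gene, members left out. It was searched on 474 genes. The mean cosine was 0.47 over 616 clone pairs of 474 other genes, 0.10 for the next layout and 0.04 for identifiers at face value. Plates 1 to 20 were kept. This layout had been found earlier on these data, so the check is not blind. Symbols were updated through Entrez identifiers for 5467 of 5472 elements (RefSeq, ARS-UCD2.0).

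Elements of a gene were averaged. Differences were formed within each dye orientation, from elements with a value on every array compared. Python 3.11.15, numpy 2.4.6 and pandas 2.3.3 were used, and the scripts were tested on simulated data. All members were named; context genes were the called ones with the largest differences, up to 4 per list, and lists of 5 or fewer in full; for each member the 3 nearest genes were named. A few further genes of these lists were named after their values were seen. Members and lists were chosen with earlier results of these data known.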

Additional observations from a re-analysis of the deposited data

How the results depend on the processing

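Besides the sign of the ratio, 12 alternatives were tried for the 18 called member differences: centring, quantile normalisation, ceiling values, odd or even spots, the median over clones, either dye orientation alone, the omental array with disagreeing labels, and each depot left out of the adipose mean. All 183 resulting values kept their direction and 178 were called again. The calls lost were KRT18 between mammary gland and liver without centring (-0.88) and after quantile normalisation (-0.89), KRT19 between subcutaneous and visceral fat without centring, and VIM between mammary gland and liver on the Cy3 arrays alone and on odd spots. Of 217 values for the 22 differences not called, 4 were called: KRT18 between mammary gland and adipose tissue after quantile normalisation, KRT19 between liver and adipose tissue without the mesenteric depot, and KRT8 between mesenteric and omental fat on the Cy3 arrays alone or without the omental array with disagreeing labels. Members called between subcutaneous and visceral fat fell from 2 to 1 at 1.5 log2 units and to 1 without centring. Between mesenteric and omental fat they rose from 1 to 2 on the Cy3 arrays alone, as without the omental array with disagreeing labels (2), and were 1 on the Cy5 arrays alone. For mesenteric against omental fat the first 2 of these settings are the same calculation, since leaving out that array leaves only the Cy3 arrays. Its values therefore enter the counts above under both settings. No paired analysis was possible because the 2 arrays of a tissue carry 1 RNA sample.

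Without centring the median of all genes moved from 0.01 to 0.22 (mammary gland minus liver), from -0.06 to -0.32 (liver minus adipose), from 0.01 to 0.64 (subcutaneous minus visceral) and from -0.01 to -0.32 (mesenteric minus omental). Genes called numbered 430 between subcutaneous and visceral fat but 901 without centring, and 59 between mesenteric and omental fat but 91 without centring, 107 on the Cy3 arrays alone or without the omental array with disagreeing labels, and 100 on the Cy5 arrays alone. At 1.5 log2 units, 311, 164, 285, 198 and 21 genes were called in the order mammary against liver, mammary against adipose, liver against adipose, subcutaneous against visceral and mesenteric against omental, where the 1 log2 unit rule called 598, 413, 579, 430 and 59.

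With the opposite sign of the ratio every difference turns by construction. Mammary gland minus liver was then -3.88 for EHF, -2.82 for ESRP1, -1.56 for KRT15, 1.09 for KRT18, -3.20 for KRT19 and -1.04 for VIM. Mammary gland minus adipose tissue was -4.33 for EHF, -2.48 for ESRP1, -1.45 for KRT15, -3.55 for KRT19, -1.73 for KRT8 and 2.47 for VIM. Liver minus adipose tissue was -1.76 for KRT18, -1.46 for KRT8 and 3.51 for VIM. Subcutaneous minus visceral was 1.62 for KRT19 and -1.10 for VIM, and mesenteric minus omental -1.72 for KRT19. Of the 40 member levels, 10 lay above the array median on both arrays, and 27 with the opposite sign. Without centring, where 0 is the reference itself, 13 lay above 0.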
